A study of Mus musculus with 32 samples.

Results

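Dynlt1a, Dynlt1b, Dynlt1c, Dynlt1f and the processed pseudogene Dynlt1-ps1 are near-identical mouse copies of the gene for the dynein light chain Tctex, and Dynlt3 is their single-copy relative. These 6 rows were taken by symbol from the 55103 rows of the deposited count table, and the 5 Dynlt1 rows were also added up within each library to a summed Dynlt1 count. The copies were chosen by a measured value, since Dynlt1b differed between the 2 irradiated groups in these same libraries, so its values there, and those of the other copies in any comparison that uses an irradiated group, are given as a description without a test. Dynlt3 took no part in that choice and was tested throughout.

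The libraries came from KPC36 tumours, grown from a mouse pancreatic cancer line that the labels call malignant. There were 4 groups of 8: tumours treated with carbon ions, their untreated controls, tumours treated with photons, and their own untreated controls. A carbon-ion beam releases its energy mainly where the particles stop, whereas conventional radiotherapy uses photons. Tumours were taken 4 and 7 days after treatment, but the day, the dose and the host of a given library are not in the labels used here. All groups share the same line, whose genotype is not given either. The labels do not say that the libraries of a group came from separate animals, so every p-value measures the spread between these libraries.

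Totals ran from 13891863 to 71645903 estimated counts per library. Libraries with D titles, a letter of unstated meaning, were found in 4 carbon-ion controls and 3 carbon-irradiated tumours and in no photon library. The title numbers of the photon-irradiated tumours (from 95) lay above those of every other group. These reached 48 in photon controls, 77 in carbon-ion controls and 68 in carbon-irradiated tumours. In any comparison with the photon-irradiated tumours, whatever those numbers stand for and photon treatment therefore cannot be told apart. All 8 epithelial markers passed the filter on low counts, as did all 8 fibroblast, macrophage and T cell markers. In bulk RNA of such tissue, fewer cells of a type and less RNA per cell cannot be told apart.

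Cytoplasmic dynein is the motor that carries vesicles, organelles and RNA along microtubules towards their minus ends. Its heavy chains hold the motor, and its intermediate chains carry small light chains of the Tctex, LC8 and roadblock families. Tctex light chains also bind receptors and other proteins outside the motor. In the mouse the Tctex gene Dynlt1 has been copied within a segment of chromosome 17, while Dynlt3 encodes a second Tctex-type light chain that can take the same place on the motor.

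The gene models below are those of GENCODE M21 on build GRCm38. Dynlt1a lay at chr17:6306340-6317500 on the minus strand, Dynlt1b at chr17:6430112-6436296 on the plus strand, Dynlt1c at chr17:6601671-6609774 on the plus strand and Dynlt1f at chr17:6646602-6655900 on the minus strand. The cluster spanned 349.6 kb. Dynlt1-ps1 lay at chr6:135349408-135349749 on the minus strand, without introns, and Dynlt3 at chrX:9654267-9663003 on the minus strand. The main transcript of each protein-coding member had 5 exons. The 3′ end of Dynlt1a overlapped Tmem181a, a gene on the other strand, by 1975 bases, of which 321 were exonic in the main Dynlt1a model. Since the handling of strand is not stated, reads from these 2 genes may not have been separated.

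Coding sequences are shown because how far they differ sets how far reads can be assigned to a copy. The coding sequences of Dynlt1a, Dynlt1c, Dynlt1f and Dynlt1-ps1 were identical over 342 bases, stop codon included. That of Dynlt1b differed from them at a single base, the 3rd of codon 7 (A21C, Dynlt1b to the others, counted from the A of the start codon), and was 99.7% identical. Dynlt3, with 351 bases, was 61.9% identical to Dynlt1b. Its longest exact run in common with Dynlt1b was 16 bases. The lines give the first 300 bases of the coding sequences of Dynlt1b and Dynlt3 and the first 60 of that of Dynlt1a, from the GENCODE transcripts, 5′ to 3′. Capitals mark the base that differs in the Dynlt1 lines and the shared run in the Dynlt3 line.
Dynlt1b, bases 1 to 300: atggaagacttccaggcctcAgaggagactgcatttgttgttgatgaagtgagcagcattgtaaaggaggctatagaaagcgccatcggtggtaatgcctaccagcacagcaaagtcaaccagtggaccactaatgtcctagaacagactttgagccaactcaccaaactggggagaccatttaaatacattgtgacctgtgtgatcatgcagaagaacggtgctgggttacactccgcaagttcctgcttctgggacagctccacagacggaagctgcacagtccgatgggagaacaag
Dynlt1a, bases 1 to 60: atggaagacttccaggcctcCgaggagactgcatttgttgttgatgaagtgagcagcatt
Dynlt3, bases 1 to 300: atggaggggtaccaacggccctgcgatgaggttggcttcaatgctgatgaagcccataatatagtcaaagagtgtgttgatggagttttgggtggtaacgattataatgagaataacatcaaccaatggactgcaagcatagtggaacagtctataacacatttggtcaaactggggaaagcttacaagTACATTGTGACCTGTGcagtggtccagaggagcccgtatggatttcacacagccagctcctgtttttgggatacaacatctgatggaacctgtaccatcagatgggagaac

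The main transcript models of Dynlt1b and Dynlt1f were both 771 bases long and differed at 7 bases, with 4 in the 5′ UTR, 1 in the coding sequence and 2 in the 3′ UTR. Dynlt1f also had a retained-intron model of 3545 bases, whose own windows were not counted, while Dynlt1b had no other model. Of the 722 windows of 50 bases in the Dynlt1b model, 16.8% occurred in no other gene of the annotation. All of these lay at the 5′ end, beginning at or before the coding base that differs. In Dynlt1f 50 windows (6.93%) were found in that gene only, and they began at bases 446 to 495, in its 3′ UTR. Windows of 150 bases raised these shares to 19.5% for Dynlt1b and 24.1% for Dynlt1f. For Dynlt1a, whose 3′ UTR is longer (2879 bases), the share of unique 50-base windows was 40.6%, and for Dynlt1c 6.26%. No window of Dynlt1-ps1 was unique, whereas every window of Dynlt3 was. The read length and the authors' annotation are not given in the sources used here. RSEM divides reads that fit several transcripts by estimation among the Dynlt1 copies. Every 100-base window of the copies occurred in no gene outside them (100%). Among 50-base windows this share was 98.96% for Dynlt1a and 98.94% for Dynlt1c. Transcripts were searched on their own strand only, so the overlap of Dynlt1a with Tmem181a does not enter these shares.

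**Figure D1:**
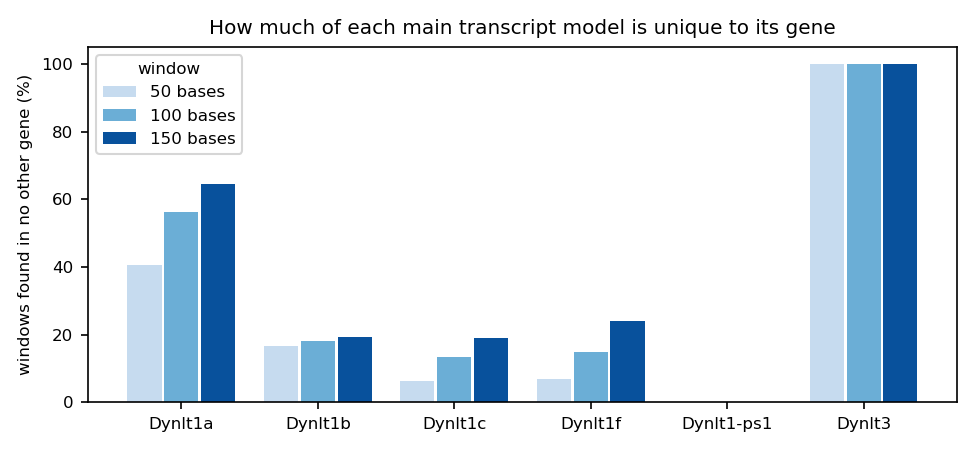
Percent of windows of 50, 100 and 150 bases in the main transcript model of each member that occur in no other gene of GENCODE M21. Dynlt1b and Dynlt1f stand at 16.8% and 6.93% for 50 bases, Dynlt1-ps1 at 0 and Dynlt3 at 100%.

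The summed Dynlt1 level was lowest in the photon-irradiated tumours. Levels are CPM, counts scaled to the library total after TMM scaling and expressed per 1000000. The sum of carbon-ion controls ran from 60.4 to 77.6 CPM with a median of 68.6 (68.8 ± 5.68, mean ± SD, n = 8). In the carbon-irradiated tumours it ran from 55.9 to 113 CPM with a median of 66.0 (70.2 ± 18.7, n = 8), and among photon controls from 54.0 to 82.9 with a median of 66.0 (66.8 ± 9.29, n = 8). In the photon-irradiated tumours it ran from 35.6 to 57.0 CPM with a median of 45.4 (46.5 ± 6.87, n = 8). In order of the mean, photon-irradiated tumours were lowest, then photon controls, carbon-ion controls and carbon-irradiated tumours, and the last 3 differed by less than their spread. The photon-irradiated range reached into that of the others, where 3 of 24 libraries lay at or below its highest value.

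The fitted log2 fold change of the sum was -0.52 (SE 0.12) for photon treatment against its controls and 0.028 (SE 0.11) for carbon ions against theirs. Between the irradiated groups, carbon ions against photons, it was 0.59 (SE 0.12). All 8 carbon-irradiated libraries were above the photon-irradiated median, and without carbon-irradiated replicate 2, which stood apart at 113 CPM, the difference was 0.46. These comparisons share libraries with the one that drew attention to Dynlt1b and are not tested. The controls were the groups not used there: between them the sum differed by 0.042 (SE 0.11, 95% interval -0.19 to 0.28, edgeR adjusted p = 0.874), which did not pass.

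**Figure D2:**
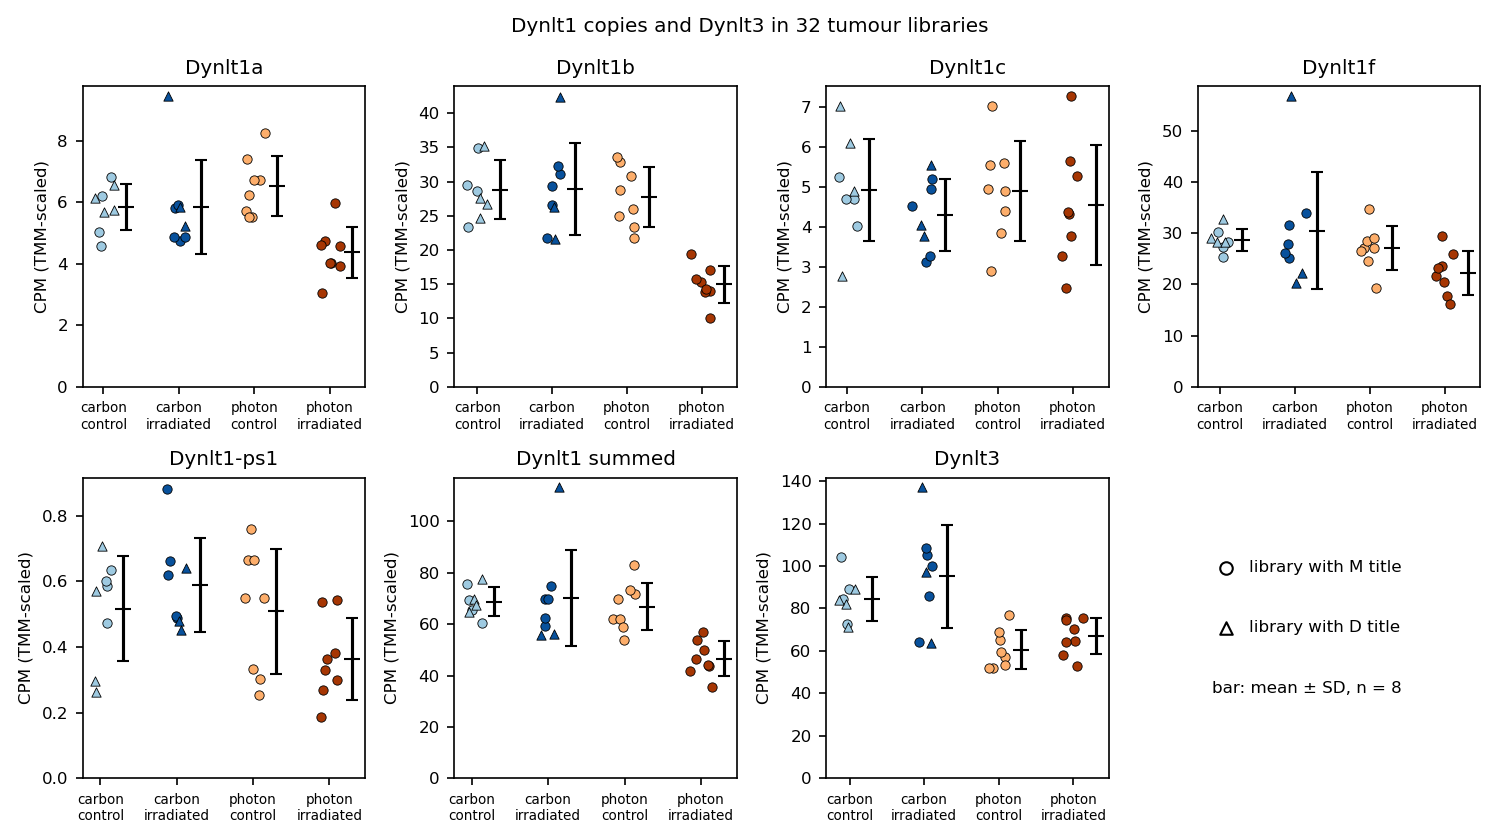
CPM of each member and of the summed Dynlt1 count in every library (points; triangles are D-titled libraries), with mean ± SD of the 8 libraries of a group beside them. Dynlt1b in photon-irradiated tumours (10.1 to 19.4 CPM) lies below all 24 other libraries. The mean of Dynlt3 is higher in both carbon-ion groups than in the photon groups, with overlapping ranges.

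Dynlt1b and Dynlt1f had the highest counts of the copies. Dynlt1b ran from 23.3 to 35.2 CPM among carbon-ion controls (median 28.1, 28.8 ± 4.32, n = 8) and from 21.6 to 42.3 CPM in the carbon-irradiated tumours (median 27.9, 28.9 ± 6.69, n = 8). It ran from 21.8 to 33.6 CPM among photon controls (median 27.3, 27.8 ± 4.42, n = 8) and from 10.1 to 19.4 CPM in the photon-irradiated tumours (median 14.8, 14.97 ± 2.72, n = 8). Every photon-irradiated library thus lay below every other library, the lowest of the other 24 being at 21.6 CPM. The part of this between the irradiated groups is what the gene was chosen by. The log2 fold change was -0.89 (SE 0.13) for photons, 0.0047 (SE 0.13) for carbon ions and 0.95 (SE 0.13) between the irradiated groups. Of all genes tested, 0.278% were lower without overlap after photons and 0.0977% higher without overlap in carbon-irradiated than in photon-irradiated tumours. Between the controls Dynlt1b differed by 0.053 (SE 0.13, 95% interval -0.21 to 0.31, edgeR adjusted p = 0.853) and did not pass, against 9.14% of all features that passed there.

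Dynlt1f moved less. It ran from 25.5 to 32.7 CPM among carbon-ion controls (median 28.4, 28.7 ± 2.13, n = 8), from 20.3 to 56.7 in the carbon-irradiated tumours (median 26.96, 30.5 ± 11.5, n = 8), from 19.3 to 34.7 among photon controls (median 27.2, 27.1 ± 4.33, n = 8) and from 16.1 to 29.4 in the photon-irradiated tumours (median 22.4, 22.3 ± 4.28, n = 8). The ranges of all 4 groups overlapped. Its log2 fold change was -0.28 (SE 0.15) for photons, 0.088 (SE 0.15) for carbon ions and 0.45 (SE 0.15) between the irradiated groups, the last falling to 0.27 without carbon-irradiated replicate 2. The controls differed by 0.081 (SE 0.15, edgeR adjusted p = 0.802).

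Dynlt1a was a minor copy by count. It lay between 4.58 and 6.83 CPM among carbon-ion controls (median 5.94), between 4.75 and 9.46 in the carbon-irradiated tumours (median 5.53), between 5.51 and 8.25 among photon controls (median 6.48) and between 3.06 and 5.97 in the photon-irradiated tumours (median 4.30). The photon-irradiated libraries were all below the median of their controls, though the ranges overlapped. The log2 fold change was -0.58 (SE 0.14) for photons, -0.00084 (SE 0.14) for carbon ions and 0.42 (SE 0.14) between the irradiated groups. Tmem181a, named because it overlaps Dynlt1a, had a log2 fold change of -0.20 (SE 0.14, edgeR adjusted p = 0.424) for photons.

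Dynlt1c overlapped between all groups. Its means were 4.94 ± 1.28 CPM among carbon-ion controls, 4.31 ± 0.902 in the carbon-irradiated tumours, 4.90 ± 1.25 among photon controls and 4.56 ± 1.51 in the photon-irradiated tumours (n = 8 each). Its log2 fold change for photons was -0.11 (SE 0.20). Dynlt1-ps1 had between 2.85 and 43.3 estimated counts per library, with group means of 0.364 to 0.589 CPM. Its fold changes are the least precise of the members (-0.48, SE 0.25, for photons), and none of its windows was unique. Between the controls, Dynlt1a (-0.16, SE 0.14, adjusted p = 0.538), Dynlt1c (0.0074, SE 0.20, adjusted p = 0.988) and Dynlt1-ps1 (-0.0076, SE 0.25, adjusted p = 0.991) did not pass edgeR's test either.

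**Figure D3:**
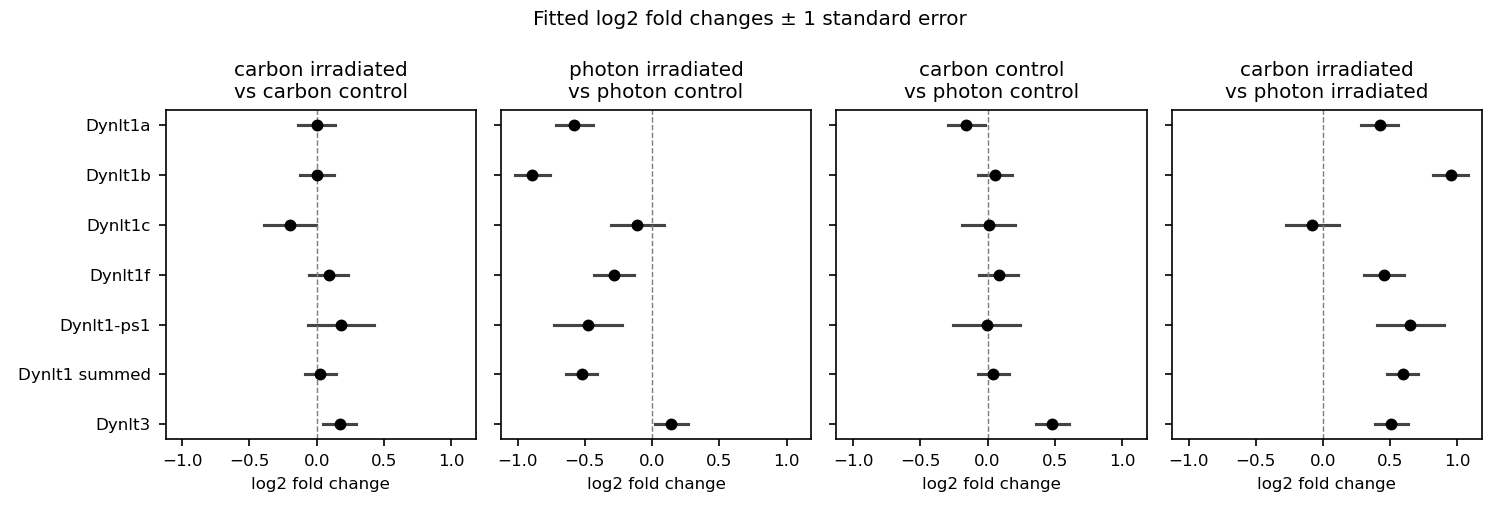
Fitted log2 fold change of each member and of the summed Dynlt1 count in 4 comparisons (points), with 1 standard error on each side (lines). Dynlt1b has the lowest value for photons (-0.89) and the Dynlt1 rows lie near 0 between the controls, where Dynlt3 is at 0.48.

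The shares of the copies are given as a description, since a lower Dynlt1b share in the photon-irradiated tumours follows in part from the choice of that gene. Dynlt1b made up 41.7% ± 3.30 of the summed count among carbon-ion controls, 41.5% ± 3.79 in the carbon-irradiated tumours, 41.5% ± 1.78 among photon controls and 32.1% ± 2.64 in the photon-irradiated tumours (SD, n = 8 each). The 8 photon-irradiated libraries lay between 28.2% and 36.1%, below all 24 others, of which the lowest was at 36.7%. The share of Dynlt1f went the other way, from 40.6% ± 2.76 in the photon controls to 47.6% ± 2.92 in the photon-irradiated tumours, and its ranges met (35.8% to 43.8% and 42.7% to 51.5%). Dynlt1c took 7.49% ± 2.51 and 10.1% ± 3.85 in the same groups, and Dynlt1a 9.75% ± 0.469 and 9.43% ± 1.44. Shares add up to the whole, so a lower share of 1 copy raises the others, and all 5 depend on how the reads were divided.

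The ratio of the Dynlt1b count to the Dynlt1f count, which also depends on that division, was 1.003 ± 0.121 among carbon-ion controls (0.849 to 1.16), 0.990 ± 0.197 in the carbon-irradiated tumours (0.746 to 1.29), 1.03 ± 0.0961 among photon controls (0.919 to 1.16) and 0.676 ± 0.0646 in the photon-irradiated tumours (0.619 to 0.785; n = 8 each). The photon groups did not overlap, while 2 of the 24 other libraries fell within the photon-irradiated range. Without Dynlt1b, the other copies together stood at 39.1 ± 5.16 CPM among photon controls and 31.6 ± 4.54 in the photon-irradiated tumours, with overlapping ranges (32.2 to 49.3 and 25.6 to 37.6). Whether the lower Dynlt1b count reflects that gene or the division of reads among the copies was not tested.

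**Figure D4:**
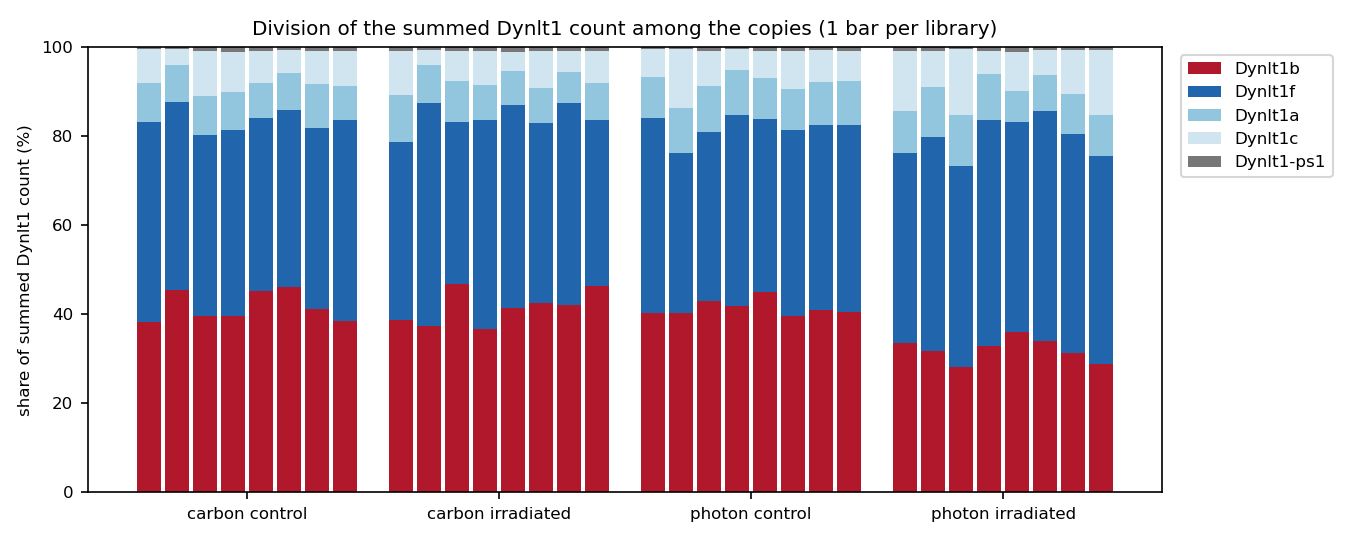
Share of each copy in the summed Dynlt1 count, in percent, with 1 bar per library and 8 per group. The Dynlt1b part is 36.7% or more in the 24 libraries of the other groups and 36.1% or less in the photon-irradiated tumours.

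Dynlt3 was higher in the carbon-ion arm, among controls and irradiated tumours alike. It ran from 71.3 to 104 CPM among carbon-ion controls (median 84.3, 84.6 ± 10.4, n = 8) and from 63.8 to 137 in the carbon-irradiated tumours (median 98.5, 95.2 ± 24.2, n = 8). In the photon arm it ran from 52.0 to 76.9 CPM in the controls (median 58.4, 60.6 ± 8.99, n = 8) and from 52.9 to 75.7 in the irradiated tumours (median 67.5, 66.95 ± 8.49, n = 8). The ranges of the arms overlapped. Dynlt3 was higher in carbon-ion than in photon controls, by 0.48 on the log2 scale (SE 0.12, 95% interval 0.23 to 0.73, edgeR adjusted p = 0.0114), with all 8 carbon-ion controls above the photon-control median. Of all features, 5.13% were called higher and 4.01% lower in this comparison.

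Between the irradiated groups Dynlt3 was also higher with carbon ions, by 0.51 (SE 0.12, edgeR adjusted p = 0.0222), with 6 of 8 libraries above the photon-irradiated median. Of all features, 3.56% were called higher and 1.54% lower there. That call was lost in a fit of those 2 groups alone (0.52, adjusted p = 0.0753) and without carbon-irradiated replicate 2 (0.41, adjusted p = 0.0616) or 5 (0.50, 0.0513), or photon-irradiated replicate 1 (0.49, 0.0626) or 3 (0.48, 0.0660). Treatment did not pass in either arm: the log2 fold change was 0.17 (SE 0.12, 95% interval -0.077 to 0.42, edgeR adjusted p = 0.996) for carbon ions and 0.14 (SE 0.12, 95% interval -0.10 to 0.39, adjusted p = 0.520) for photons. The difference between the effects was 0.027 (SE 0.17, 95% interval -0.32 to 0.38, edgeR adjusted p = 0.954). Among M-titled libraries alone the control difference was 0.54 (edgeR adjusted p = 0.0226).

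Some cell-type markers passed in the same comparisons. Between the controls, where 5.13% of all features were called higher and 4.01% lower, 3 of 8 epithelial markers were higher in the carbon-ion arm by edgeR, Cdh1 of adherens junctions (0.41, adjusted p = 0.0404) and the tight-junction claudins Cldn4 (1.39, adjusted p = 0.0184) and Cldn7 (1.19, adjusted p = 0.0171). Summed epithelial markers lay between 2817 and 4936 CPM for carbon-ion controls and between 2750 and 4141 for photon controls. The fibroblast markers Col1a2, a collagen chain (-0.59, adjusted p = 0.0480), and Pdgfra, a growth factor receptor (-0.77, adjusted p = 0.0257), were lower by edgeR, 2 of 8. Foxj1, a regulator of motile cilia, was higher (0.85, edgeR adjusted p = 0.0136), 1 of 4 ciliated-cell markers tested, of which 2 had a log2 fold change above 0 and the other 2 below. Their part in the Dynlt3 difference was not tested.

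With photons, 2 of 8 fibroblast markers fell by edgeR (Fap and Pdgfrb), as did 2 of 8 macrophage markers (Csf1r and Mrc1) and 2 of 8 T cell markers (Cd2 and Cd3d), while the T cell marker Cd8a rose. These genes are named after their values were seen. The 3 T cell markers had low mean levels. Cd2 stood at 1.02 CPM among photon controls and 0.325 after photons, Cd3d at 0.587 and 0.146, and Cd8a at 0.202 and 0.490. Of all features, 3.82% passed in this comparison, 2.11% lower and 1.71% higher. Summed macrophage markers ran from 565 to 1055 CPM among photon controls, against 385 to 714 after photons. Summed fibroblast markers ran from 12556 to 26794 CPM and from 9133 to 16919 in the same groups, and summed T cell markers from 7.30 to 15.7 and from 4.94 to 8.89. Skeletal muscle markers had a median log2 fold change of -2.99 with 0 of 8 called, over summed levels of 6.39 to 1301 CPM among photon controls and 3.87 to 323 after photons. Between the irradiated groups, where 3.56% of all features were called higher and 1.54% lower, 4 of 8 macrophage markers were higher with carbon ions by edgeR, among them the complement genes C1qc (0.65, adjusted p = 0.0191) and C1qb (0.63, adjusted p = 0.0257) and the growth factor receptor Csf1r (0.54, adjusted p = 0.0282). The summed macrophage markers ran from 597 to 1112 CPM in carbon-irradiated tumours. Of the 8 epithelial markers 1 was higher with carbon ions by edgeR, Cldn7 (1.39, adjusted p = 0.0194). No marker of these lists was at 0 in every library. Their part in the Dynlt1 values was not tested.

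Other genes of the motor and its partners were counted in each comparison. With photons, where 3.82% of all features passed, 0 of 7 other subunits of cytoplasmic dynein 1 passed edgeR's test, and so did 0 of 4 subunits of the ciliary dynein 2, 0 of 12 dynactin subunits and 0 of 4 Tctex relatives, with medians of -0.030, 0.19, -0.080 and -0.22 beside -0.00062 over all features. Dynactin is the complex that links dynein to its cargo. Of 16 adaptors and regulators 1 rose, Bicdl1, an adaptor for vesicles (0.45, SE 0.11, edgeR adjusted p = 0.0209). The roadblock light chain Dynlrb1 had 47.5 ± 6.23 CPM among photon controls and 38.8 ± 7.18 after photons (-0.29, edgeR adjusted p = 0.176), and is named here after its values were seen. With carbon ions no gene of the other lists passed, and no feature was called (0% of 20475 by edgeR, with 1177 at an unadjusted p under 0.05 and 17 called by DESeq2). Outside the Dynlt1 copies, no listed gene passed for the difference between the effects, where 0.0781% of all features did.

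Between the irradiated groups, where 5.1% of all features passed, dynein genes went both ways. The LC8 light chain gene Dynll1 was higher with carbon ions (0.44, SE 0.13, edgeR adjusted p = 0.0434), at 179 ± 50.1 against 131 ± 24.7 CPM, and the motor heavy chain Dync1h1 was lower (-0.31, SE 0.093, edgeR adjusted p = 0.0438), at 632 ± 79.7 against 784 ± 75.7 CPM. Of the 12 dynactin genes 3 were higher by edgeR: Dctn3 (0.49, adjusted p = 0.0262), Capza2, a capping protein subunit (0.32, adjusted p = 0.0337), and Actr10, of the pointed end (0.33, adjusted p = 0.0465). The median was 0.17 for dynactin and 0.057 for the other dynein 1 subunits, beside 0.0082 over all features. Bicdl1 was lower (-0.42, edgeR adjusted p = 0.0287), 1 of 16 adaptors. Of 7 reported binding partners of Tctex light chains 0 passed there. In a fit of those 2 groups alone the number of features called fell from 1044 to 57. Whether the dynein genes, markers and neighbours called between the irradiated groups stayed among them was not examined.

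Between the controls, where 9.14% of all features passed, Dynlt3 was the 1 of 4 Tctex relatives that passed. None of the 7 dynein 1, 4 dynein 2 and 12 dynactin genes did. Trak1, which ties mitochondria to motors, was lower in the carbon-ion controls (-0.33, SE 0.092, edgeR adjusted p = 0.0216), 1 of 16 adaptors. So was Bmpr2, a BMP receptor whose tail binds Tctex light chains (-0.25, SE 0.080, edgeR adjusted p = 0.0446), 1 of 7 partners.

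**Figure D5:**
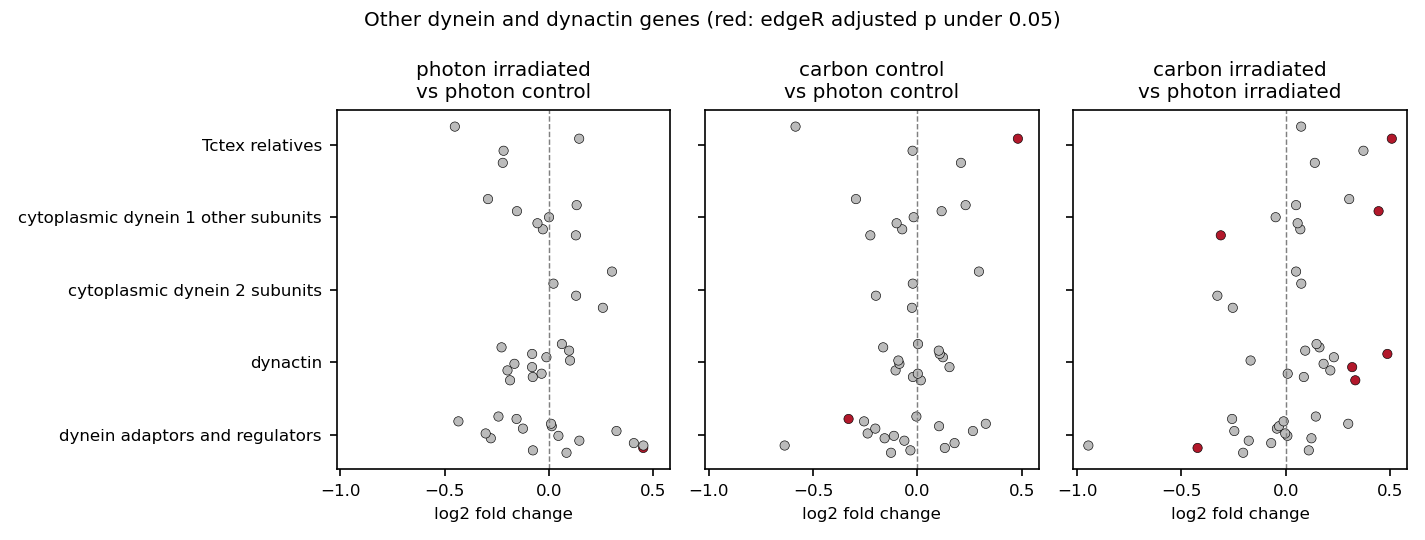
Log2 fold change of each tested gene in 5 lists of dynein and dynactin genes (points), in 3 comparisons, with red for an edgeR adjusted p under 0.05. Dynlt3 is the red point among the Tctex relatives between the controls (0.48) and between the irradiated groups (0.51), and 3 dynactin genes are red in the latter.

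RefSeq's order of genes on GRCm38.p6 gave 41 neighbours, 15 on each side and 11 between the copies, with 30 present as rows and 17 tested. For photons 1 was higher and 0 lower by edgeR, with a median log2 fold change of 0.0022, where 1.71% of all features were called higher and 2.11% lower. The one was Tulp4 (0.32, SE 0.091, edgeR adjusted p = 0.0441), which was also the only neighbour to pass between the controls, higher in the carbon-ion arm (0.40, SE 0.091, edgeR adjusted p = 0.00555), where 5.13% of all features were higher. Between the irradiated groups 3 of the 17 were higher with carbon ions by edgeR, beside 3.56% of all features, and they are named here after their values were seen: Gtf2h5, a subunit of the transcription and repair factor TFIIH (0.54, adjusted p = 0.0340), Ezr, which ties membranes to actin (0.39, adjusted p = 0.0369), and Rnaset2b, a ribonuclease (0.54, adjusted p = 0.0296). No neighbour passed with carbon ions. Among the neighbours copied with Dynlt1, named because the list holds only these genes, Tmem181a did not pass in any comparison, and Tmem181b-ps and Tmem181c-ps fell below the filter.

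Genes most like the summed Dynlt1 count were found by the root mean square difference of centred log2 CPM over the 32 libraries, a description with no test. The 5 closest were Naa20 (0.164), which encodes an acetyltransferase subunit, Psma3 (0.165) of the proteasome, Rpsa (0.165) of the ribosome, Ostc (0.171) of the oligosaccharyltransferase and Atp5o (0.173) of ATP synthase. The median over the 11238 genes with a settled name and a mean log2 CPM of at least 2 was 0.375, and Dynlt3 was at 0.333. A gene at the same level in every library would be at 0.323, so Dynlt3 was no closer to the sum than that. All 5 were highest in carbon-irradiated replicate 2, as was the sum.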

How the data were processed

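RNA was measured in 32 libraries of KPC36 tumours, prepared with a stranded mRNA kit per the labels' protocols. The values are estimated counts per gene deposited by the authors, made with RSEM 1.3.3 after FastQC 0.12.0 and Trimmomatic 0.32 on mm10, per the submitters' processing notes. The annotation, read length and handling of strand are not given in the sources used here. The tests were designed for whole counts, so the estimates were rounded, which changed totals by at most 0.00403%.

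In R 4.3.3 with edgeR 4.0.16, filterByExpr (minimum count 10) left 20474 genes, and the summed Dynlt1 count was added as a row. TMM scaling and 1 quasi-likelihood fit with a coefficient per group gave 5 contrasts, adjusted by Benjamini-Hochberg over all 20475 features with a threshold of 0.05. Standard errors come from the F statistic, and 95% intervals use 28 residual degrees of freedom. log2 CPM for likeness used a prior count of 2. Tests on simulated counts, with changes of 1 on the log2 scale in the carbon-ion controls, recovered changed genes before use. They covered only the comparison of the controls, and smaller changes were not simulated. DESeq2 1.42.0, other scalings, filters and library sets were alternatives.

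The members and lists were chosen with earlier results of these data known. The lists were Dynlt1 copies, Tctex relatives, cytoplasmic dynein 1 other subunits, cytoplasmic dynein 2 subunits, dynactin, dynein adaptors and regulators, reported binding partners of Tctex light chains, segment-duplicated neighbours, and markers of epithelial, fibroblast, macrophage, T cell, skeletal muscle and ciliated cells. The text names the members, up to 3 genes of each list with the smallest adjusted p under 0.05 between the controls and between the irradiated groups, neighbours of the cluster that passed between the controls, and the 5 genes with a settled name and a mean log2 CPM of at least 2 that were most like the sum. Genes named outside this rule are marked as such. Sequences and positions come from GENCODE M21 on GRCm38, and gene order from RefSeq on GRCm38.p6.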

Additional observations from a re-analysis of the deposited data

Results flagged for a closer look

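Carbon-irradiated replicate 2 stood apart from the other 7 libraries of its group in 3 of the values reported. Its Dynlt1a level was 9.46 CPM, with the next library at 5.90. Its Dynlt1f level was 56.7 CPM, with the next at 34.01, and its summed Dynlt1 level was 113 CPM, with the next at 75.0. In each case the gap to the nearest library was larger than Dixon's 95% limit for 8 libraries allows. Members, sum and groups gave 28 sets of 8 libraries, and chance alone flags about 1 in 20. Without this library the group's means were 5.33 ± 0.515 CPM for Dynlt1a, 26.8 ± 4.84 for Dynlt1f and 64.0 ± 7.52 for the sum (n = 7). The library had a total of 41733667 estimated counts and a TMM factor of 0.819, the lowest of the 32, and its cause was not tested.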

How the results depend on the processing

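Under every other scaling, filter, test and set of libraries tried, the photon values of Dynlt1b and of the sum kept their direction, and leaving out 1 library gave -0.95 to -0.82 for Dynlt1b and -0.57 to -0.47 for the sum. The Dynlt3 difference between the controls was called under 8 of 8 alternatives and in 32 of 32 fits without 1 library (adjusted p up to 0.0358). Between the irradiated groups it was 0.52 (adjusted p = 0.0753) with only the groups compared, and 0.41 to 0.59 without 1 library, called in 28 of 32. Values near 0 changed sign. Dynlt1-ps1 between the controls was 0.013 with unrounded counts, 0.13 with M titles only, 0.0015 with only the groups compared and 0.11 with the title letter as a term, and -0.10 to 0.099 without 1 library. Dynlt1c there was -0.064 with M titles only, -0.054 with the letter and -0.0048 with upper-quartile scaling, and -0.083 to 0.11 without 1 library. The Dynlt3 difference of effects was -0.040 with M titles only and -0.038 with upper-quartile scaling, and -0.065 to 0.094 without 1 library. The sum between the controls was -0.0078 with the letter. Without carbon-irradiated replicate 2 the carbon-ion values turned to -0.10 for the sum, -0.10 for Dynlt1f and -0.094 for Dynlt1b, and that of Dynlt1a ran from -0.13 to 0.035 without 1 library. The Dynlt3 carbon-ion value was 0.078 without carbon-irradiated replicate 2. Between the controls, leaving out 1 library gave 0.0089 (without photon-control replicate 2) to 0.10 for Dynlt1b, 0.022 to 0.14 for Dynlt1f, -0.19 to -0.10 for Dynlt1a and 0.0028 to 0.093 for the sum. The other alternatives gave 0.0094 to 0.092 for Dynlt1f and -0.27 to -0.15 for Dynlt1a there. Dynlt1c with photons ran from -0.23 to -0.0095 without 1 library. Why these moved was not tested. Counts of called features moved more. Carbon ions gave 0, 17 with DESeq2 and 0 to 5 (without carbon-irradiated replicate 2) without 1 library. The controls gave 1871, 973 with M titles only (fewer libraries), 1081 with the letter, and 1178 (without photon-control replicate 3) to 2196 without 1 library. The difference of effects gave 16, 270 with DESeq2, 1 with M titles only, 4 with no filter, 94 with upper-quartile scaling, and 5 (without carbon-ion control replicate 8) to 108 (without photon-control replicate 2). The irradiated groups gave 1044, 2019 with DESeq2, 323 with no filter, 57 with only the groups compared, 503 with the letter, and 111 (without photon-irradiated replicate 3) to 2162 (without carbon-irradiated replicate 3). Photons gave 782, 1520 with DESeq2, 432 with no filter, and 242 (without photon-control replicate 3) to 1657 (without photon-control replicate 2). Upper-quartile scaling moved the share called higher from 69.8% to 49.2% between the irradiated groups, from 44.9% to 59.0% for photons and from 43.75% to 23.4% for the difference. No paired analysis was possible because replicate numbers follow the order of deposition. Dynlt1-ps1 rests on as few as 2.85 counts in a library.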
